A study of Mus musculus with 20 samples.

Results

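Transcripts lost and gained in the total RNA of mouse oocytes between prophase I arrest and metaphase I are described here. Members were all genes of the total RNA table, compared between the 2 libraries taken at 8 h and the 2 taken at 0 h. That is 4 of the 20 libraries of the series. The table listed 7917 genes, of 8114 listed in it or in the accompanying table of ribosome-bound mRNA, and all 7917 passed the filter on low values. The series followed oocytes through the resumption of meiosis, with a pair of libraries for each time point and kind of RNA. All oocytes were from C57BL/6 females, 3 weeks old, that carried Zp3-Cre and RiboTag, a tagged ribosomal protein that Cre switches on; the Zp3 promoter drives Cre in growing oocytes. Every group shared these alleles, an injection of 5 IU of PMSG 44 h before collection, removal of the surrounding cells, and holding in 1 µM cilostamide, a phosphodiesterase inhibitor that keeps oocytes in prophase. Each sample pooled 200 oocytes. The 0 h group was at prophase I when the inhibitor was withdrawn, and the 8 h group was at metaphase I after 8 h of culture without it. Groups at 2, 4 and 6 h covered early, mid and late prometaphase I. No label says that the replicates were separate cultures or animals, and p-values therefore measure only the spread between these samples.

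Fully grown oocytes have almost stopped transcription, and they carry a store of maternal mRNA laid down during growth. As meiosis resumes, some of these mRNAs gain a longer poly(A) tail through U-rich elements near the end of their 3' untranslated region, while many others lose their tail and are later destroyed. CNOT deadenylases, the adaptor BTG4 and RNA-binding proteins such as CPEB1, DAZL and the ZAR proteins are known to act in these steps. Values are relative to the other transcripts in a library, so a fall in a gene's value and a gain in the rest cannot be told apart, nor can fewer cells and less RNA per cell. Whether RNA was selected by its poly(A) tail is not stated. A change in amount and a change in tail length can therefore not be told apart either, and falls and rises below are of the values.

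The deposited values are CPM scaled by a factor for each library, called scaled CPM below. The depth of the 4 libraries, inferred from the steps between values, was 33154384 to 42825538 reads in listed genes, and over all 10 total RNA libraries a value of 10 stood for 326 to 533 reads. Pearson's r between replicates, across genes, was 0.97 at 0 h and 0.953 at 8 h. On the leading principal component of the 10 total RNA libraries (28.4% of the variance) the 8 h libraries lay at 37.4 and 19.8, and no other library was above 2.79. On the next (14.2%) they lay on opposite sides, at 20.2 and -25.01, and on the component after that (12.2%) 0 h replicate 1 stood at 23.4 with 0 h replicate 2 at 2.46. Defining oocyte markers were present in both groups: 13 of 14 were listed and together made up 1.77% and 1.71% of the total at 0 h and 1.75% and 1.68% at 8 h. Of 34 markers of granulosa and cumulus cells 8 were listed, and Foxl2, Amh and Cyp11a1 were not among them. Summed values of the 8 were 462.6 and 384.3 at 0 h and 475.4 and 659.6 at 8 h. Serpine2 alone gave 214 and 179 of these at 0 h and 314 and 361 at 8 h. By single gene, 5 of the 8 were lower at 8 h and 3 higher, with a median log2 change of -0.09. The part of such cells in the results below was not tested.

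More transcripts fell than rose by metaphase I. Genes for ribosomal proteins, the respiratory chain, the proteasome and several meiotic and egg proteins were among those that fell, and a smaller set of oocyte transcripts, among them Tcl1, Bcl2l10 and Oosp1, rose by less than 2-fold. In limma, 314 genes passed an adjusted p of 0.05, which is 3.97% of those tested: 75 rose (0.947%) and 239 fell (3.02%). The libraries of the 2 groups did not overlap for any of the 314, against 47.9% of all genes. The median log2 change was 0.77 among the genes that rose and -1.27 among those that fell, with 0.01 for all genes. A change of at least 2-fold was reached by 21 of the genes that rose and 178 of those that fell, and a change of at least 4-fold by 1 and 22. Genes that fell held 3.54% and 3.33% of all values in the 0 h libraries and 1.86% and 1.79% in those at 8 h, while genes that rose went from 1.72% and 1.73% to 2.78% and 2.52%. These counts changed when single libraries were left out. Such a fit leaves 1 library in a group, which widens the standard error. A call can therefore end there although the change stays the same or grows. A call given below as lost in this way does not by itself show that the library left out made the change. Without 0 h replicate 1 the test called 52 genes (6 up, 46 down), without 0 h replicate 2 it called 161 (26 up, 135 down), without 8 h replicate 1 it called 195 (18 up, 177 down), and without 8 h replicate 2 it called 414 (128 up, 286 down). The main fit takes its spread from the libraries of all time points, and a fit of the 0 h and 8 h libraries alone called 164 (45 up, 119 down). With each library corrected for the length and GC content of transcripts, 130 genes were up and 173 down, so that 57.1% of calls were falls in place of 76.1%. There were 47 genes, 44 down and 3 up (Bcl2l10, Tcl1 and Ypel5), that were called in full and again without each of the 4 libraries.

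**Figure D1:**
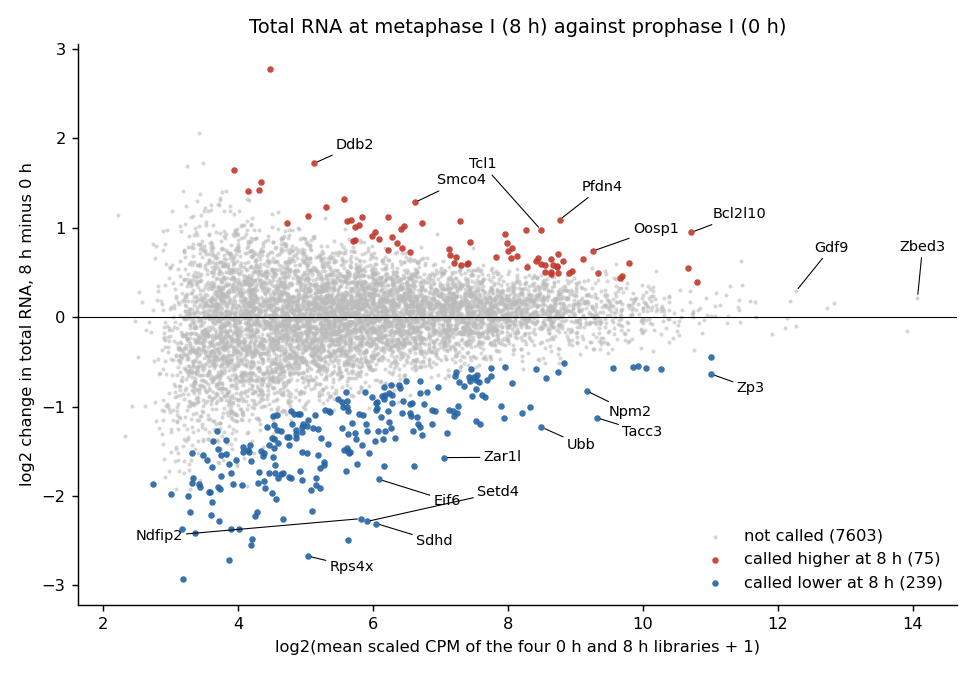
Log2 change in total RNA from 0 h to 8 h (vertical axis, log2 of scaled CPM + 1) against the log2 of the mean scaled CPM over the 4 libraries + 1 (horizontal axis), 1 point per gene. Blue points are the 239 genes that fell, red the 75 that rose and grey those not called; falls reached beyond -2, while all but a few rises stayed under 1.5.

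Few genes were called before 8 h. Against the same 0 h libraries, limma called 0 genes at 2 h and 0 at 4 h. Of 7917 genes tested, 226 at 2 h and 347 at 4 h had an unadjusted p under 0.05 in limma. Both counts are below the share of 0.05 that would pass with no change in any gene. At 6 h limma called 16 (0.202%), of which 14 (0.177%) were up and 2 (0.0253%) down. Of those 16, 15 were called in the same direction at 8 h. The 239 genes that had fallen by 8 h had a median log2 change of -0.08 after 2 h, which went to -0.24 after 4 h, -0.51 after 6 h and -1.27 after 8 h. The 75 that had risen stood at 0.23, 0.36, 0.49 and 0.77 in turn. These medians share the 0 h libraries and come from genes chosen at 8 h, so they describe the course and do not test it. For Rps4x and Sdhd the mean was lower at each later time. Tacc3, a spindle protein that stabilises kinetochore fibres, was at 896 and 851 at 0 h, 752 and 758 at 6 h, and 442 and 362 at 8 h. Most of its loss lay between the last pair of time points. Ndfip2, an adaptor of Nedd4-family ubiquitin ligases, was at 81.9 and 102 at 0 h, 125 and 169 at 2 h, 50.4 and 50.7 at 6 h, and 24.8 and 13.6 at 8 h. Its value was thus higher at 2 h than at 0 h before it dropped.

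**Figure D2:**
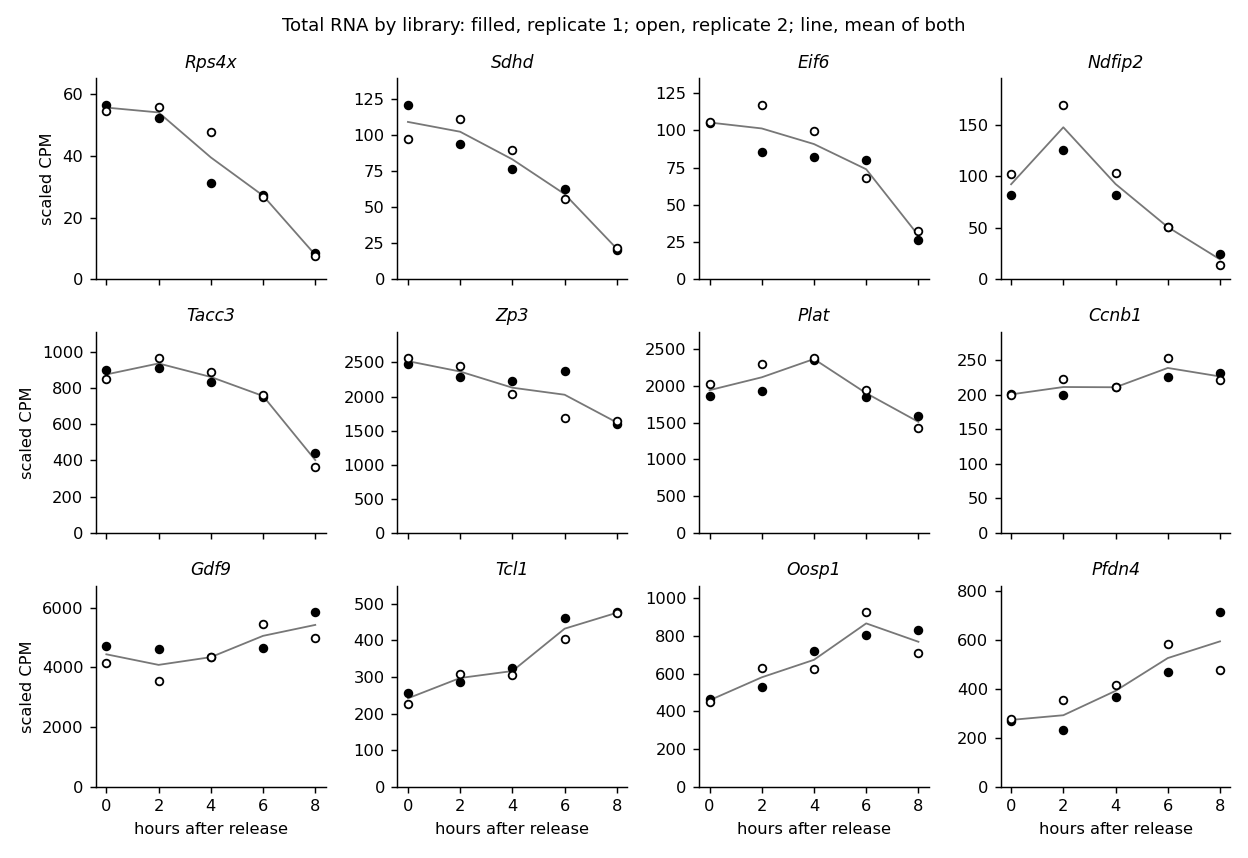
Scaled CPM in total RNA (vertical axis, from 0) by hours after release from cilostamide (horizontal axis) for 12 genes; filled circles are replicate 1, open circles replicate 2, and the line joins the means. Rps4x, Sdhd, Eif6, Ndfip2, Tacc3 and Zp3 ended lower, Tcl1, Oosp1 and Pfdn4 higher, and Plat, Ccnb1 and Gdf9 were not called.

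The 12 largest falls are taken among called genes with a mean value of at least 20 over the 4 libraries, unnamed gene models left out. In these 12 a transcript's value at 8 h was 0.157 to 0.272 of that at 0 h, on the scale of the value + 1. Some genes outside that rule fell as far, such as Rps9 (-2.55), with a mean of 17.3. Rps4x (mm10 chromosome X, 102184941 to 102189394), which encodes a protein of the small ribosomal subunit, had values of 56.6 and 54.7 at 0 h and 8.35 and 7.45 at 8 h. The groups were far apart, with a log2 change of -2.67 ± 0.27 (limma standard error here and below, 2 libraries per group, adjusted p 2.64e-05). That standard error takes its spread from the total RNA libraries of all time points, not from those at 0 h and 8 h alone. Sdhd (chromosome 9, 50596357 to 50603812), a membrane anchor of succinate dehydrogenase in the respiratory chain, went from 121 and 97.3 to 20.5 and 21.8 (-2.31 ± 0.21, adjusted p 7.69e-06). Setd4, a SET-domain methyltransferase, had values of 106 and 91.4 at 0 h and 17.3 and 21.7 at 8 h, a change of -2.29 ± 0.24. Vamp8, a SNARE of endosome fusion, changed by -2.26, Ndfip2 by -2.25 and Dmap1, a subunit of the TIP60 chromatin complex, by -2.17. The others were Cox7a2l, an assembly factor of respiratory supercomplexes (-2.03), the zinc finger gene Zfp804b (-1.97), the complex I subunit Ndufa9 (-1.93), the deadenylase Cnot8 (-1.91), Rpl37 (-1.91) and Sap30bp (-1.88). Of these 12, 9 were called again without each library in turn. Vamp8 was lost without 0 h replicate 1 (-1.74), as were Cox7a2l (-1.65) and Zfp804b (-1.39), and Zfp804b also without 8 h replicate 1 (-1.59).

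Messages for the ribosome itself made up the list with the lowest median. Of 55 cytosolic ribosomal protein genes measured, 20 (36.4%) fell and none rose, against 3.02% falls among all genes; 49 of the 55 were lower at 8 h, and the list's median log2 change was -0.89 beside 0.01 for all genes. Rps9, a small subunit protein, was at 33.4 and 27.2 at 0 h and 3.96 and 4.69 at 8 h (-2.55 ± 0.32). Rpl5, which carries the 5S RNA into the large subunit and restrains MDM2, went from 114 and 118 to 47.6 and 63.0 (-1.07 ± 0.19). Among the other members called beside Rps4x and Rpl37 were Fau, Rps10, Rps13, Rps14, Rps20, Rps21, Rps24, Rps26, Rpl14, Rpl23, Rpl30, Rpl32, Rpl39 and Rplp0. Ribosomal protein genes have many near-identical pseudogene copies, so how their reads were shared out is uncertain. The count was 5 without 0 h replicate 1, and 5 of the 20 were called without each library in turn; the median stayed between -0.93 and -0.80 with any 1 library left out and was -0.61 after correction for length and GC. Of 48 mitochondrial ribosomal protein genes, 6 fell, among them Mrpl48 (55.8 and 50.2, then 18.5 and 16.7; -1.54) and Mrps25 (41.5 and 47.4, then 18.8 and 18.3; -1.22), and Mrpl3 alone rose. Both falls were lost without 0 h replicate 1 (-1.46 and -1.31), and that of Mrps25 also without 0 h replicate 2 (-1.12). The median of that list was -0.49, and -0.26 after the correction.

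Energy supply and protein turnover genes followed the same direction. Of 51 nuclear genes of oxidative phosphorylation, 10 (19.6%) fell and none rose, against 3.02% falls and 0.947% rises among all genes. The list's median was -0.63, but -0.35 without 8 h replicate 2 and -0.38 after correction for length and GC. Atp5b, the catalytic subunit of ATP synthase, was at 529 and 540 at 0 h and at 384 and 368 at 8 h, a change of -0.51 ± 0.13, and the groups did not overlap. Without 0 h replicate 1, 2 of the list were called; Atp5b was lost without any 1 of the 4 libraries (-0.48 to -0.54). The 11 listed transcripts of the mitochondrial genome gave 0 calls in limma, with 1 at an unadjusted p under 0.05 (1478 of all 7917 genes were). They include mRNAs for partners of these proteins and the ribosomal RNAs mt-Rnr1 and mt-Rnr2. Together they held 2.66% and 2.71% of the total at 0 h and 2.87% and 2.34% at 8 h. Most of that sum was ribosomal RNA: in 0 h replicate 1, mt-Rnr2 gave 15799 and mt-Rnr1 7098 of 26648. Taken singly, 10 of the 11 were higher at 8 h, with a median log2 change of 0.24. That median was 0.205 to 0.309 with any 1 library left out. The groups did not overlap for 9 of the 11, against 47.9% of all genes. Their single changes ran from -0.16 for mt-Rnr2 to 0.50 for mt-Atp6. Of 35 proteasome genes 11 (31.4%) fell and 1 rose, against 3.02% and 0.947% of all genes, with a median of -0.49. Psmc2, an ATPase of the regulatory particle, was at 116 and 113 and then 41.0 and 47.8 (-1.35 ± 0.22). Psmb1, a subunit of the core, was at 39.3 and 24.2 and then 6.94 and 9.05 (-1.83 ± 0.39). Psmd3, a lid subunit, rose from 24.5 and 39.6 to 75.6 and 60.02 (1.09 ± 0.26), a call lost without 0 h replicate 1 (0.75) or 8 h replicate 1 (0.92), as was that of Psmb1 (-1.495 and -1.66). The proteasome genes called lower numbered only 1 without 0 h replicate 1, and 7 without 0 h replicate 2 or after correction for length and GC, and the list's median was -0.16 after that correction.

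**Figure D3:**
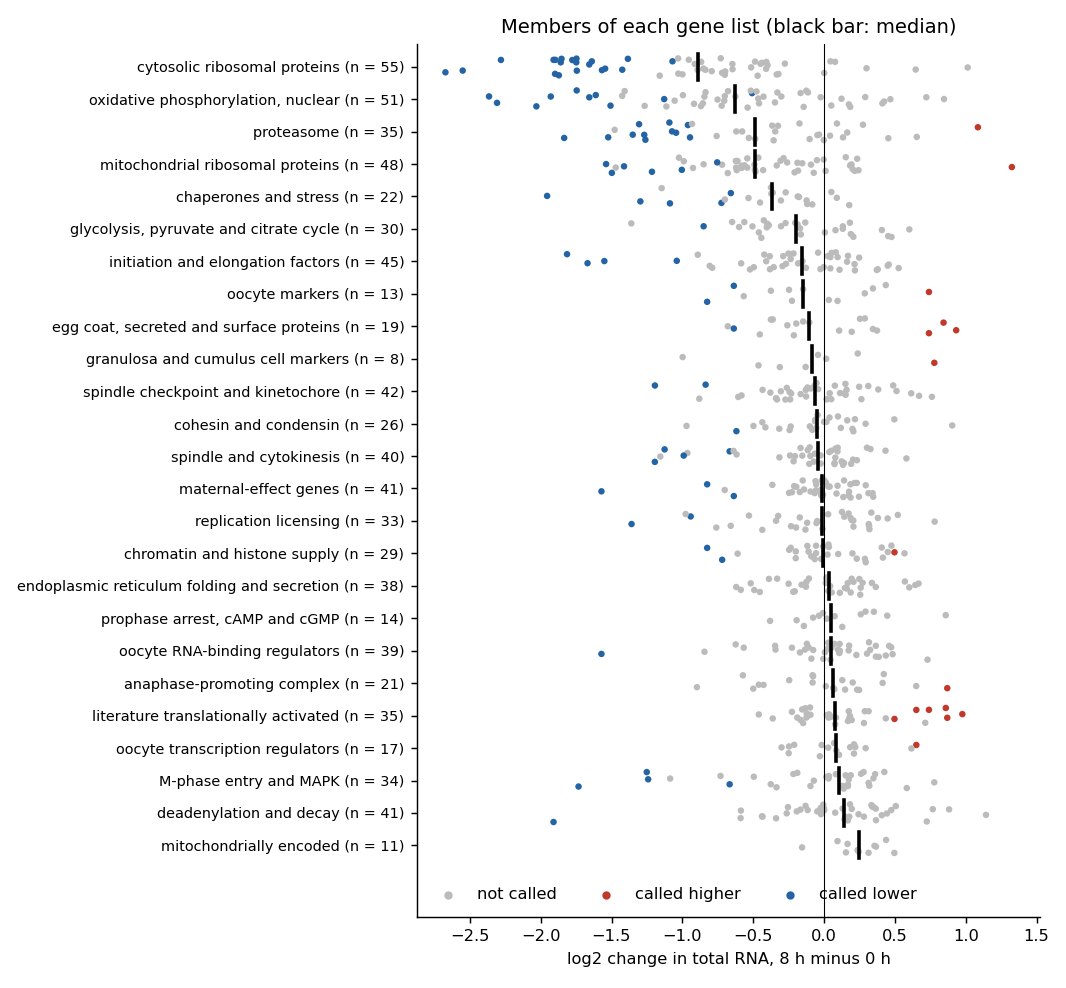
Log2 change in total RNA, 8 h minus 0 h, for every measured member of each gene list with at least 8 members (horizontal axis; the position of a point within its row is arbitrary). Black bars are list medians; those of cytosolic ribosomal proteins (-0.89), oxidative phosphorylation (-0.63), proteasome and mitochondrial ribosomal proteins (both -0.49) lay lowest.

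Together those 4 lists held 189 measured genes, of which 47 (24.9%) fell, and these made up 19.7% of all falls. Of the 47, 8 were called again without each of the 4 libraries. On ribosomes, where 21.8% of all genes were called lower, 46 of the 47 were, and the remaining gene was not listed there. Outside all lists there were 165 genes that fell and 64 that rose. Short transcripts were common among the falls. The median transcript length in the annotation was 1596 bases for genes that fell, 3010 for those that rose and 3342 for those not called, and the median 3' untranslated region was 333, 1176 and 1141 bases. GC content had medians of 51.1%, 47.9% and 49.1%. In the shortest quintile of genes (123 to 1855 bases) 147 fell, or 9.29%, against 14, or 0.886%, in the longest quintile. Of the 189 genes of the 4 lists, 144 were in the shortest quintile; the other 1438 genes of that quintile had 108 falls, or 7.51%. The median log2 change of the shortest quintile was -0.09 in 8 h replicate 1 and -0.28 in 8 h replicate 2, so the 8 h libraries differed in this respect. The part of length in the falls was not tested beyond the corrected fit given above.

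**Figure D4:**
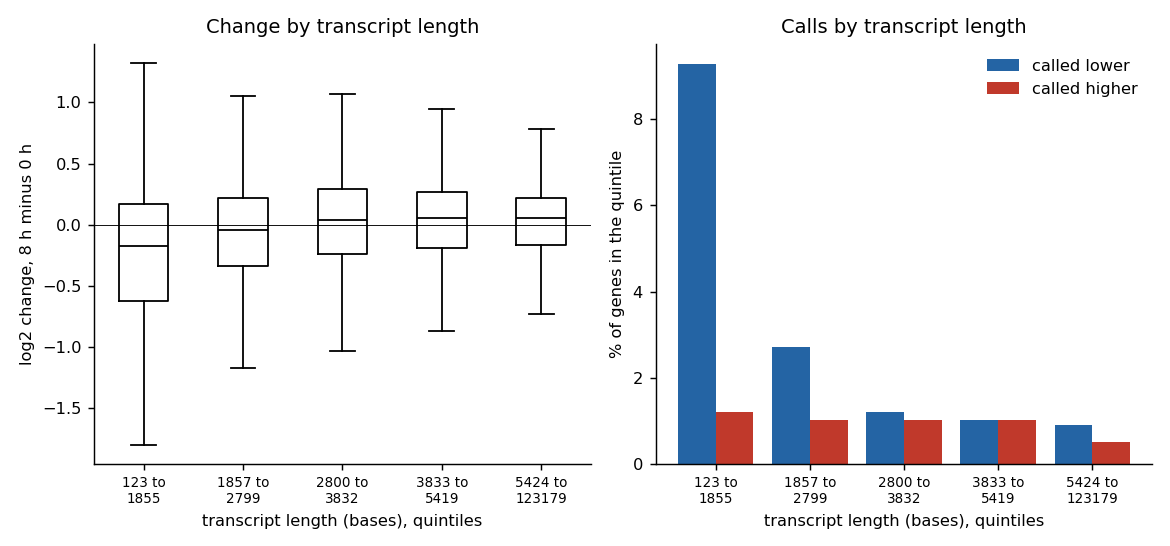
Left, log2 change in total RNA by quintile of transcript length in bases (boxes are quartiles with the median, whiskers reach the last value within 1.5 box lengths, points beyond are not drawn). Right, percent of each quintile called lower (blue) or higher (red); falls went from 9.29% in the shortest quintile to 0.886% in the longest, rises from 1.2% to 0.506%.

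Some factors that start or extend translation fell. Of 45 measured, 4 fell and none rose (median -0.16), beside 3.02% falls among all genes. Eif6 (chromosome 2, 155819832 to 155826925), which keeps the large ribosomal subunit from joining too early, was at 105 and 106 at 0 h and 26.5 and 32.2 at 8 h (-1.81 ± 0.21, adjusted p 8.54e-05). Eef1d, an exchange factor of elongation, went from 161 and 132 to 55.3 and 36.9 (-1.67 ± 0.23) and was among the few genes already called at 6 h (-1.23). The eIF3 subunits Eif3d (-1.55) and Eif3g (-1.04) were the others; both were lost without 0 h replicate 1 (-1.57 and -0.89), and Eif3d also without 0 h replicate 2 (-1.53). Of 22 chaperone and stress genes 5 fell. Dnajb1, a co-chaperone of HSP70, was at 227 and 163 and then at 79.2 and 76.3 (-1.30 ± 0.18), and Cct3, a subunit of the chaperonin that folds tubulin and actin, at 71.7 and 77.9 and then 38.1 and 31.4 (-1.09 ± 0.21). The call of Cct3 was lost without either 0 h library (-1.15 and -1.03). Of 38 genes for folding and secretion in the endoplasmic reticulum limma called 0. It gave 5 of the 38 an unadjusted p under 0.05, beside 1478 of all 7917 genes. The list's median was 0.04. Over all genes 3.97% were called, so a list of that size would hold few calls in any case. Of 30 genes of glycolysis and the citrate cycle only Mdh2, a malate dehydrogenase, was called (-0.85); that call ended without 0 h replicate 1 (-0.66) or 8 h replicate 2 (-0.67) and after correction for length and GC (-0.57).

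Among cell division genes single members fell and most did not pass the test. In the list for M-phase entry and MAPK signalling, 4 of 34 fell and none rose, with a median of 0.11. In limma 9 of the 34 had an unadjusted p under 0.05, beside 1478 of all 7917 genes. Cdk1, the kinase that drives entry into M phase, was at 46.7 and 48.0 at 0 h and 16.3 and 23.2 at 8 h (-1.24 ± 0.27, adjusted p 0.0115). Its small partner Cks2 went from 28.1 and 31.2 to 8.72 and 7.73 (-1.73 ± 0.32). Aurka, a spindle pole kinase, changed by -0.67, and Ensa, an inhibitor of the phosphatase PP2A, by -1.25. The call of Cdk1 was lost without either 0 h library (-1.26 and -1.22) or 8 h replicate 1 (-0.997), and that of Cks2 without 0 h replicate 1 (-1.80). Aurka was lost without either 0 h library (-0.64 and -0.69) or 8 h replicate 2 (-0.53), and Ensa without 0 h replicate 1 (-0.96) or 8 h replicate 1 (-0.98). Cyclin B1 (Ccnb1), the partner of CDK1, was at 202 and 199.7 at 0 h and 231 and 222 at 8 h, a difference of 0.17 that did not pass. Ccnb2 was at 140.4 and 116 and then at 293 and 165 (0.78, adjusted p 0.0956), with the 8 h libraries far apart; it passed without 8 h replicate 2 (1.19) and after the correction for length and GC (1.01). Mos, the kinase that switches on MAPK, was at 156 and 175 and then 208 and 203 (0.31, adjusted p 0.29), and passed after that correction (0.60). Of 14 genes of prophase arrest and cAMP signalling limma called 0. It gave 2 of the 14 an unadjusted p under 0.05, beside 1478 of all 7917 genes. Over all genes 3.97% were called (3.02% lower), so 0 of 14 is not a result about that list.

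Spindle and chromosome genes gave few calls, and read against the 3.02% of all genes that fell, those of the kinetochore, cohesin and replication lists are not a result about the lists. Of 40 for the spindle and cytokinesis 4 fell and none rose. Tacc3 (chromosome 5, 33658128 to 33678995) changed by -1.13 ± 0.12 (adjusted p 3.16e-05), and the tubulin gene Tubb4b was at 341 and 294 and then at 157 and 161 (-0.99 ± 0.15). Kif22, a chromosome-arm kinesin (-1.19, lost without 0 h replicate 1 at -0.92), and Aurka were the others. Of 42 kinetochore and checkpoint genes, Spc25 (46.0 and 30.3, then 15.1 and 16.4; -1.19) and Cenpm (76.0 and 73.2, then 37.4 and 45.7; -0.84) fell. Neither was firm: Spc25 was lost without each of the 4 libraries in turn (-0.90 to -1.49), Cenpm without either 0 h library (-0.81 and -0.86) or 8 h replicate 1 (-0.70), and both after correction for length and GC (-0.97 and -0.53). Cdca5, which encodes sororin, the protector of cohesin, was the sole call among 26 cohesin and condensin genes (489.8 and 542, then 377 and 298; -0.62) a call that ended without either 0 h library (-0.69 and -0.55) or 8 h replicate 2 (-0.45) and after that correction (-0.44). Of 33 replication genes, Rpa2, a subunit of the single-strand DNA binding complex, fell from 80.1 and 73.1 to 27.7 and 30.8 (-1.36 ± 0.20). Mcm5, a subunit of the replicative helicase, fell by 0.94 on the log2 scale and lost its call without 0 h replicate 1 (-0.67) or 8 h replicate 1 (-0.62). In the anaphase-promoting complex and its regulators, Cdc20, the activator of the complex at metaphase, was the sole call of 21. It had values of 48.0 and 46.1 and then 83.4 and 90.3 (0.87 ± 0.23, adjusted p 0.0386), and lost its call without any 1 of the 4 libraries (0.81 to 0.93).

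Oocyte-specific transcripts were split. Of 41 maternal-effect genes 3 fell, beside 3.02% falls among all genes, and the list's median was -0.02. Zar1l, which encodes a relative of the maternal RNA-binding protein ZAR1, was at 221 and 174 at 0 h and 58.3 and 73.3 at 8 h (-1.57 ± 0.19, adjusted p 9.85e-05). Zar1 itself was at 746 and 615 and then at 581 and 576, a difference of -0.23 that did not pass. Npm2, a histone chaperone of the oocyte nucleus, went from 824 and 649.9 to 447 and 381 (-0.83 ± 0.17), a call lost without 0 h replicate 1 (-0.65) and after correction for length and GC (-0.50). Of the zona pellucida genes, which encode the egg coat, Zp3 fell from 2480.2 and 2559 to 1595 and 1645 (-0.64 ± 0.13, adjusted p 0.00599), while Zp1 (-0.38, adjusted p 0.0925) and Zp2 (-0.15) did not pass; Zp1 did once every library was rescaled to the same total (-0.42, adjusted p 0.0499). The call of Zp3 was lost without either 0 h library (-0.66 and -0.61) and after the correction (-0.34). The secreted growth factor gene Gdf9 was at 4715 and 4164 and then 5849 and 5001 (0.29), and Bmp15 at 2232 and 2207 and then 2880 and 2758 (0.34); neither passed, although Gdf9 did after the correction (0.52) and Bmp15 in a fit of the 4 libraries alone. Of the 10 transcripts with the highest scaled CPM at 0 h, a scale that is not per length, none was called. They included Zbed3, a partner of the subcortical maternal complex, at 16642 and 15262 and then 18100.0 and 18898 (0.21; 0.43 after the correction, where it passed), Dnmt1, the maintenance DNA methyltransferase (-0.10), and Tet3, the oocyte's 5-methylcytosine oxidase (0.18).

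Calls among genes of the mRNA decay machinery were near the share over all genes, 3.97%, so their count is not a result about the list. Of 41 genes for deadenylation and decay 1 was called. In limma 12 of the 41 had an unadjusted p under 0.05, beside 1478 of all 7917 genes. Cnot8, a catalytic deadenylase of the CCR4-NOT complex, was at 59.8 and 55.0 at 0 h and 20.2 and 10.4 at 8 h (-1.91 ± 0.28, adjusted p 0.000462). Cnot6l, another catalytic subunit, was at 624 and 738 and then at 773 and 762 (0.18), and Btg4 at 900.0 and 955 and then 1073 and 893 (0.08); neither passed, and the groups overlapped for Btg4. Of 39 RNA-binding regulators only Zar1l was called, again near the share over all genes. Dazl was at 273 and 281 and then 374 and 377 (0.44, adjusted p 0.112), Cpeb1 at 1198 and 1054 and then 909.5 and 859.5 (-0.35, adjusted p 0.0906), and the mRNA storage protein gene Ybx2 at 262 and 279 and then 246 and 340.5 (0.10). The groups did not overlap for Dazl and Cpeb1, and Cpeb1 passed once every library was rescaled to the same total (-0.39).

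Rises were fewer and smaller. The 12 largest among genes with a mean value of at least 20, unnamed gene models left out, ran from 1.054 to 1.72. Ddb2, a sensor of ultraviolet DNA damage, was at 10.6 and 20.2 at 0 h and 67.3 and 38.1 at 8 h (1.72 ± 0.38, adjusted p 0.0134), with the 8 h libraries far apart. Pfdn4, a subunit of the prefoldin chaperone, went from 269 and 278 to 714 and 476 (1.09 ± 0.19), and Fubp3, a KH-domain RNA-binding protein, from 22.4 and 22.5 to 50.7 and 57.7 (1.23 ± 0.25). Mrpl3 (1.33), Smco4 (1.28), Lonrf2 (1.13), Pcnx3 (1.12), Entpd1 (1.12), Psmd3 (1.09), Cmtr2 (1.07), Ddx5 (1.07) and Copz2 (1.054) were the others. None of the 12 was called without each of the 4 libraries in turn: without 0 h replicate 1, 11 of them were lost, with changes of 0.75 (Psmd3) to 1.35 (Mrpl3), and without 8 h replicate 1 Mrpl3 stood at 0.69 and Ddx5 at 0.63. Smco4 was lost without 0 h replicate 2 (0.98), and Copz2 (0.89 to 1.22) and Lonrf2 (0.99 to 1.27) without any 1 of the 4.

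Rises that held without any 1 library were in Tcl1, Bcl2l10 and Ypel5. Tcl1 (chromosome 12, 105216750 to 105222793), a co-activator of AKT abundant in oocytes, was at 256 and 227 at 0 h and 477 and 474 at 8 h (0.98 ± 0.13, adjusted p 0.000285). Bcl2l10, an oocyte member of the BCL2 family, went from 1199.5 and 1101 to 2300.2 and 2137 (0.95 ± 0.12, adjusted p 0.00013), and Ypel5 from 232 and 185 to 447 and 372 (0.98 ± 0.16). Bcl2l10 and Ypel5 fall outside the naming rule and were chosen after their values were seen. Of 19 genes for egg coat, secreted and surface proteins 3 rose, beside 0.947% of all genes, and Zp3 fell. The list's median was -0.10, with 10 of the 19 lower at 8 h. The rises were those of Omt2b (185 and 152, then 392.3 and 263, a change of 0.93), Omt2a (0.84) and Oosp1 (466 and 451, then 829 and 708, a change of 0.74). Omt2a and Omt2b are close copies, so their reads may be shared. Without 0 h replicate 1 the calls of Omt2b (1.07), Omt2a (0.98) and Oosp1 (0.76) were lost. Omt2b and Omt2a were also lost without 0 h replicate 2 (0.79 and 0.70) or 8 h replicate 1 (0.64 and 0.59). Obox5, an oocyte homeobox gene, rose from 450.1 and 412 to 746 and 614 (0.65) and was lost without either 0 h library (0.72 and 0.59) or 8 h replicate 1 (0.51). Slbp, which binds the stem-loop of histone mRNA, rose from 369 and 338 to 522 and 477 (0.50) and was lost without any 1 of the 4 libraries (0.43 to 0.56). Serpine2, an inhibitor of plasminogen activators that is also on the granulosa cell list, rose from 214 and 179 to 314 and 361 (0.78), and was lost without 0 h replicate 2 (0.65). The other 7 listed granulosa genes were not called.

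Several of these genes are on a list of 35 that the literature describes as translationally activated during maturation, written from general knowledge. In total RNA, where 0.947% of all genes rose, 6 of the 35 did (Tcl1, Oosp1, Obox5, Slbp, Cdc20 and the RNA-binding protein gene Ewsr1) and none fell, with a median of 0.08. On ribosomes, where 20.2% of all genes were called higher and 21.8% lower, 28 of the same 35 were called higher and 4 lower, with a median of 1.36. The list was drawn up from genes known for such a gain, so that count is a description. In the test of the difference between both changes, 22 exceeded their total RNA change and 3 were below it. The count of rises in total RNA dropped to 1 without 0 h replicate 1 and to 2 without either 0 h replicate 2 or 8 h replicate 1, and Ewsr1 was lost without any 1 of the 4 libraries (0.83 to 0.89). Plat, the tissue plasminogen activator, is an example of a member with no rise in total RNA. It was at 1859.7 and 2024 at 0 h and 1587 and 1434 at 8 h (-0.36, adjusted p 0.0732) while its ribosome-bound mRNA rose by 2.22. Rescaling every library to the same total brought the total RNA difference of Plat past the threshold (-0.40).

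Change in total RNA and change on ribosomes went mostly the same way among the genes called. In the ribosome-bound table limma called 3173 of 7543 genes (42.1%) at 8 h against 0 h. Of the 75 genes that rose in total RNA, 53 were called higher on ribosomes, 17 were not called and 5 were called lower. Of the 239 that fell, 174 were called lower, 39 were not called, 15 were called higher and 11 were not listed. The sign was the same for 86.7% of the genes that rose and 89% of those that fell and were listed, against 60.8% of all 7346 genes in both tables. Across those genes the 2 changes had a Pearson r of 0.392, given as a description since genes are not independent replicates. In a joint fit, 1543 of 7346 genes (21%) differed between the ribosome-bound and the total RNA change, 850 (11.6%) with a higher and 693 (9.43%) with a lower change on ribosomes. Vamp8 fell furthest on ribosomes among the named falls (-4.16), with values of 20.5 and 82.0 at 0 h and 3.30 and 0.31 at 8 h. Its replicates there were far apart, and 1 value was near the floor. Rps4x changed by -3.23 on ribosomes. In total RNA the changes were -2.26 for Vamp8 and -2.67 for Rps4x. For neither gene did the 2 changes differ in the joint fit (adjusted p 0.09 and 0.381).

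A few transcripts fell in total RNA while their values on ribosomes rose. Besides Ndfip2, Cnot8 and the Polycomb gene Eed, these were Tmem68, Zfp280d, Mapk6, Gm5946, N4bp2, Tcea1, Casp8ap2, Dab2, Alg10b, Dazap2, E330021D16Rik and Ern1, chosen after their values were seen. Ndfip2, Cnot8, Mapk6, N4bp2 and Casp8ap2 kept their call in total RNA without each library in turn, and the rest did not. Cnot8 fell by 1.91 on the log2 scale in total RNA and rose by 1.31 on ribosomes, a difference of 3.22. Zfp280d fell by 1.27, a call lost without 0 h replicate 1 (-1.23), and rose by 1.92, and Casp8ap2, a protein needed for histone mRNA supply, fell from a mean of 426 to 213 in total RNA (-1.005) and rose by 1.22 on ribosomes. In the opposite direction, Camsap3, a microtubule minus-end protein, rose by 0.59 in total RNA and changed by -0.91 on ribosomes. Its call in total RNA was lost without either 0 h library (0.60 and 0.58) or 8 h replicate 2 (0.53). Furin, Wbp11, Copz2 and Prmt5 also rose in total RNA and were called lower on ribosomes. None of them kept its call in total RNA without each library in turn.

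**Figure D5:**
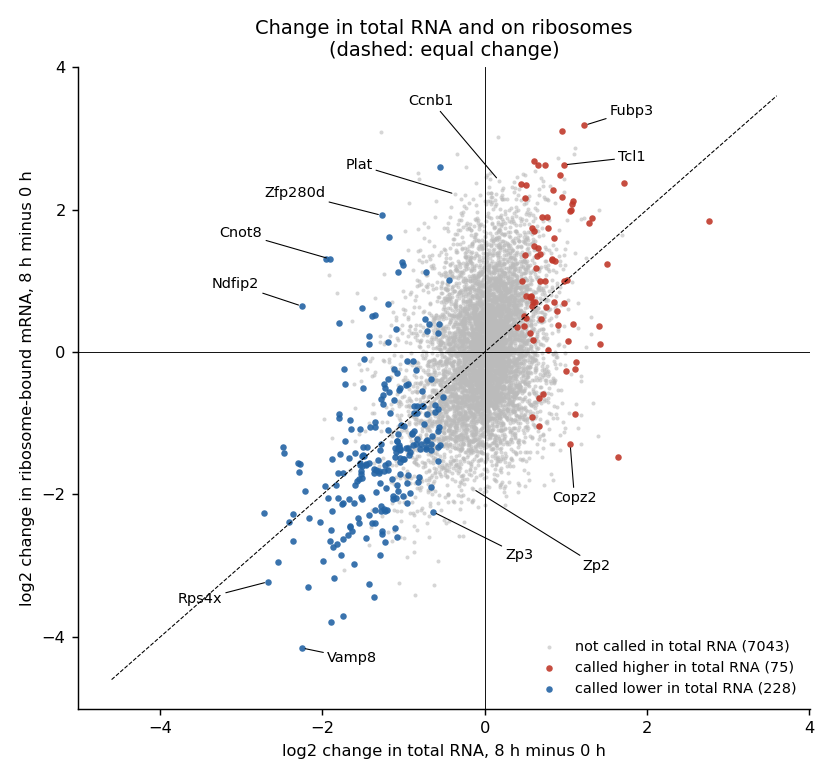
Log2 change from 0 h to 8 h in ribosome-bound mRNA (vertical axis) against that in total RNA (horizontal axis) for the 7346 genes in both tables; red and blue points rose (75) and fell (228) in total RNA, grey were not called there, and the dashed line marks equal change. Most blue points lay at lower left; Cnot8, Ndfip2 and Zfp280d lay at upper left.

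The ends of the transcripts are shown for genes of both directions because tail elements near the poly(A) signal are known to govern maternal mRNA. They are 30-base windows that end at the last poly(A) signal, from GENCODE vM21 transcripts on mm10, in the sense strand and 5' to 3', with the poly(A) signal (AATAAA or ATTAAA) and any U-rich element (TTTTAT or TTTTAAT) in capitals; the genes were picked after their values were seen. 4 that rose come first:
Tcl1 (chr12:105216772-105216801, minus strand): tattttagagatacggctggatttAATAAA
Bcl2l10 (chr9:75351588-75351617, plus strand): catTTTTAATaacttcaaattcttAATAAA
Omt2b (chr9:78329553-78329582, plus strand): tggggttttaacggTTTTATAATAAATAAA
Obox5 (chr7:15759748-15759777, plus strand): aatagaaaaacAATAAAtctgataAATAAA
5 that fell come next:
Sdhd (chr9:50596359-50596388, minus strand): tactctgaaaaaacaaaatttttaAATAAA
Eif6 (chr2:155819853-155819882, minus strand): ttctgctatcttgtgccccaccccATTAAA
Npm2 (chr14:70647316-70647345, minus strand): cccagcaagctcgcctagggccacAATAAA
Tacc3 (chr5:33678934-33678963, plus strand): gtgtgcagagctgggtagccctgtAATAAA
Rpl37 (chr15:5119092-5119121, plus strand): atgagttggggatcagagctacacATTAAA
Bcl2l10 and Omt2b have a U-rich element inside the window, and Tcl1 has 1 elsewhere in its last 100 bases. None was found in the last 100 bases of Obox5 or of the 5 genes that fell. Among genes not shown, Omt2a, Rfpl4 and Magoh, which rose, had at least 1 there, and Slbp, which rose, had none. Cox7a2l, Cdk1 and Ndfip2, which fell, had none. Of genes called higher on ribosomes but not called in total RNA, Ccnb1, Dazl and Mos had none and Plat had 1.

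Over all genes with a 3' untranslated region of at least 100 bases, TTTTAT or TTTTAAT was found on the sense strand in the last 100 bases of 25 of 72 genes that rose (34.7%), 26 of 193 that fell (13.5%) and 1557 of all 7239 (21.5%). The poly(A) signal itself was there in 87.5%, 79.8% and 81.9%. Genes that rose had lower GC content than genes that fell, which alone alters how often a U-rich run occurs, and its part was not tested. A match is a description of the annotated sequence.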

How the data were processed

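RNA was sequenced from total RNA of pools of mouse oocytes, 2 libraries per time, and from ribosome-bound mRNA of the same time points. The authors deposited a signal per gene, CPM multiplied by a factor for each library (totals 970943 to 1038973 in total RNA). In the 10 total RNA libraries all values were whole multiples of 1 step within 0.01 of a read, from which depth was inferred. The submitters' processing notes list HISAT2, HTSeq and SAMtools, then Trimmomatic 0.36 and FastQC, limma and edgeR, and the mm10 build, without parameters. For poly(A) selection and strandedness, the method is not given in the sources used here. One label field calls the total RNA samples ribosome-bound, against their titles and the design, which were followed.

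Log2(value + 1) was fitted in limma 3.58.1 (R 4.3.3) over all 10 total RNA libraries, with time as a factor and a mean-variance trend, keeping genes that reached 1 in 2 or more libraries. Tests were two-sided, with Benjamini-Hochberg adjustment over all genes. The ribosome-bound table was fitted alike on its own 10 libraries, and the difference of both changes as an interaction over 20 libraries. In data simulated for the total RNA comparison with 7917 genes, limma recovered 41% of 100 genes changed by a log2 of 1 and 67% of 100 changed by 1.5, with 6 false among 114 calls. Measured replicates had a median absolute log2 difference of 0.215 at 0 h and 0.285 at 8 h. How far the rates above hold for the measured libraries was not tested. Replicate numbers did not pair the samples: deviations of same-numbered libraries correlated between -0.05 and 0.12 over 10 pairs of times, 1 of them over 0.1.

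Named genes were the 12 largest changes each way (mean at least 20, no overlap, unnamed models left out), from each list at most 2 genes called in either direction, the 10 with the highest values at 0 h, and a panel of 26, of which Cnot7 and Gapdh were not analysed here. Some list members are counted but not reported here by name. Other list members and genes given without a full set of values lie outside that rule. Members and lists were chosen with earlier results of these data known. Lengths, GC content and 3' ends came from GENCODE vM21: of 8114 gene IDs 5843 matched with the same version, 2264 with another version and 7 not at all. The alternatives were other pseudocounts, filters and scalings, fewer libraries, a replicate block and a correction for length and GC.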

Additional observations from a re-analysis of the deposited data

Results flagged for a closer look

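For 1543 of 7346 genes the change from 0 h to 8 h differed between ribosome-bound mRNA and total RNA in limma's interaction test. Among the named genes called in opposite directions in both tables, Cnot8 had a ribosome-bound change 3.22 above its total RNA change on the log2 scale (adjusted p 1.29e-06), Ndfip2 2.90 above (adjusted p 4.28e-06) and Eed 1.85 above (adjusted p 5.84e-05). Copz2 had a change that was lower on ribosomes, with a difference of -2.35 (adjusted p 0.00278). The call of Copz2 in total RNA was itself lost without any 1 of the 4 libraries, with changes of 0.89 to 1.22, and that of Eed without 0 h replicate 1 or 8 h replicate 2 (both -0.51) and after correction for length and GC (-0.58).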

How the results depend on the processing

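All 314 calls kept their sign under each alternative that tested them, but most alternatives could not have turned one. The groups did not overlap for any of the 314, so leaving out 1 library or changing the pseudocount cannot turn a sign. The filters, the fit of 4 libraries and the replicate block leave the log2 change as it was. Only the scalings and the correction for length and GC could have turned a sign. The number of genes called without 1 library was 52 to 414 (6 to 128 up, 46 to 286 down). A fit of the 0 h and 8 h libraries alone called 164 (45 up, 119 down), and the correction for length and GC gave 130 up, or 128 with the replicate block. With the replicate block 313 were called, 306 of them shared with the fit without it. The block ended the call of Copz2 (adjusted p 0.0597) and brought in Ccnb2 (adjusted p 0.0217). Ribosomal protein genes called lower numbered 10 with a mean of at least 20, 12 in the fit of 4 libraries and 5 to 19 without 1 library, those of oxidative phosphorylation 2 to 11, and those of the proteasome 7 in the fit of 4 libraries, 7 with the correction, 7 with the correction and block, and 1 to 8 without 1 library. Rises on the literature list were 3 in the fit of 4 libraries and 1 to 4 without 1 library. The interaction count lay between 1084 and 1439 without 1 library.

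Signs that turned were all of genes not called. Corrected for length and GC, with and without the block, Gm15698 was at 0.096, Dppa3 at 0.13, Hprt at 0.09, Actb at 0.17 and Ccnb3 at -0.052. Centring on medians put Actb at 0.0015 and Mtus1 at 0.016, and rescaling put Ccnb3 at -0.010. Without 1 library, Gm15698 ranged from -0.41 to 0.042, mt-Rnr2 from -0.32 to 0.013, Dppa3 from -0.40 to 0.12, Hprt from -0.21 to 0.014, Actb from -0.22 to 0.17, Mtus1 from -0.024 to 0.0048, Ccnb3 from -0.039 to 0.10, Tpx2 from -0.026 to 0.13, Btg4 from -0.053 to 0.21, Wee2 from -0.016 to 0.18, Nlrp5 from -0.052 to 0.24, Ybx2 from -0.14 to 0.33 and mt-Rnr1 from -0.099 to 0.41. The causes were not tested. The planned count tests in edgeR and DESeq2 were not run, because the deposited values are scaled and not counts.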

Other observations

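F-box and WD repeat genes of the Fbxw family that lie together on chromosome 9 (mm10, 109139447 to 109790670) are expressed in oocytes, and they were looked at after their values were seen. Of 15 measured there 5 fell and none rose: Fbxw20 (265 and 202 at 0 h, 131 and 134 at 8 h; -0.80 ± 0.16), Fbxw26 (-0.73), Fbxw27 (-0.72), Fbxw16 (-0.71) and Fbxw13 (-0.66). None of the 5 calls held without 0 h replicate 1, where these genes stood at -0.61 (Fbxw20) to -0.77 (Fbxw27). In all, 13 of the 15 were lower at 8 h, with a median log2 change of -0.29, beside 3.02% falls and a median of 0.01 over all genes. None of the 4 Fbxw genes on other chromosomes was called, although Fbxw5 was at -1.04 (adjusted p 0.123). The chromosome 9 genes are near-identical copies, so the sharing of reads between them is uncertain and they are not independent of each other.

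Further falls that held without any 1 library, also named after their values were seen, were Ubb, a polyubiquitin gene (530.3 and 478 at 0 h, 253 and 181 at 8 h; -1.23 ± 0.16), Fth1, the ferritin heavy chain (81.6 and 65.0, then 20.9 and 29.3; -1.52 ± 0.24), Prdx2, a peroxiredoxin (166 and 137, then 63.6 and 56.1; -1.32 ± 0.18), and Mex3c, an RNA-binding ubiquitin ligase (68.0 and 79.6, then 20.8 and 22.6; -1.72 ± 0.22). The unnamed gene model Gm26917 was the sole rise of at least 4-fold, with values of 2.61 and 4.59 at 0 h and 13.4 and 64.1 at 8 h (2.77 ± 0.53). Its 8 h libraries were far apart, and the call was lost without 8 h replicate 2 (1.68) or 0 h replicate 1 (2.46).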
